A study of Mus musculus with 4 samples.

Results

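L5-Htr2c is a cluster of excitatory neurons that the authors separated in single-cell RNA-seq of the mouse ventromedial prefrontal cortex (vmPFC) and named after layer 5 and the serotonin receptor gene Htr2c. Its members were taken by the authors' cluster label and matched to the count matrices by library and cell barcode. The cluster held 321 of the 9368 labelled excitatory neurons, which were themselves drawn from 24801 cell barcodes. Of these, 122, 97 and 98 neurons came from unsorted replicates 1, 2 and 3, where all labelled excitatory neurons numbered 2816, 2486 and 2463. The remaining 4 neurons came from the sorted library, among 1603, and were left out of all sums.

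The study asked which transcriptional types of vmPFC neuron send axons to which targets. Male C57BL/6 mice of 8 weeks had received retrograde adeno-associated viruses (rAAV) that carry EGFP and a short expressed barcode, a different barcode in each of 5 targets on 1 side of the brain: the lateral hypothalamus (LH), the basolateral amygdala (BLA), the mediodorsal nucleus of the thalamus (MD), the dorsomedial part of the striatum (DMS) and the agranular insular cortex (AI). The 3 unsorted libraries each came from 1 mouse and were run on separate lanes, so that mouse and lane cannot be told apart. The sorted library was 1 pool of EGFP-positive cells from 3 further mice. All mice carried the viruses, and there was no uninjected group. A neuron takes up a retrograde virus through its axon terminals, so a barcode transcript served as a mark of a neuron that reaches an injected site. A neuron without one may still reach a site, and a few transcripts can be background, as given below for microglia-gated cells. The matrices used here hold 1 feature named barcode. It was taken as the pooled barcode of all viruses, which was not tested, so that the target of a labelled neuron is not given.

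Near-projecting neurons are one of the main classes of deep-layer cortical excitatory neuron. They sit mainly in deep layer 5, and their axons stay within the cortex, close to the cell body, in contrast to the intratelencephalic neurons that link cortical areas and striatum, the pyramidal tract neurons that descend to brainstem and spinal cord, and the corticothalamic neurons of layer 6. Tshz2, which encodes a teashirt-family zinc finger transcription factor, and Htr2c, which encodes a Gq-coupled serotonin receptor, are standard markers of the class. Htr2c transcripts are also found in some other cortical neurons, inhibitory neurons included.

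L5-Htr2c neurons made up 4.07% ± 0.230 (SD, n = 3 libraries) of the unsorted excitatory neurons. They were the shallowest of the 7 clusters. Their median UMI count (UMIs are counted transcript molecules) was 13886.5, 14324 and 15638 in unsorted replicates 1, 2 and 3, against a mean of 22588 ± 952 over the other excitatory neurons of the same libraries. The neurons held 4823 ± 131 genes at the median, and a median of 6.02% ± 0.0816 of their UMIs were mitochondrial. Summed counts came to 1717634, 1433484 and 1532929 UMIs, and levels below are given as CPM, counts per 1000000 of these UMIs, with the viral feature left out of the total. Only 0, 1 and 3 of the neurons had the marks of a possible doublet, defined as over 40000 UMIs or at least 3 UMIs of marker genes of inhibitory neurons or glia. Between 11 and 30 cell barcodes were shared by each pair of unsorted libraries, and 5 to 8 by each unsorted library and the sorted one, none of them an L5-Htr2c neuron.

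The 2 marker genes of the label were read per cell as a description. The authors made the clusters from the expression of these same cells and named this one after Htr2c. High detection inside the cluster therefore cannot check the label. Tshz2 was detected in 99.7% ± 0.595 of L5-Htr2c neurons, Htr2c in 92.0% ± 1.33 and both in 91.7% ± 1.54. With every cell thinned to 5000 UMIs these shares were 99.2%, 77.1% and 76.3%, against 2.43%, 2.27% and 0.0392% of the other excitatory neurons at the same depth. Microglia-gated cells, which should lack both transcripts, held a Tshz2 UMI in 2.26% and an Htr2c UMI in 0.111% of thinned cells. The pooled Tshz2 share of the other neurons was thus near that of microglia, but the clusters differed. L6-Syt6 neurons lay above it, with 3.41% of thinned cells and a mean of 0.0816 Tshz2 UMIs, against 0.0289 UMIs in microglia-gated cells. The share of each remaining cluster was lower than that of microglia. Htr2c was found more widely: thinned L2/3-Rorb neurons carried it in 16.6%, L2/3-Calb1 neurons in 8.17% and cells gated as inhibitory neurons in 29.3%. The pair of transcripts together, more than Htr2c alone, set the cluster apart.

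RefSeq promoters (250 bases before to 50 after a transcript start, build GRCm38.p6) are shown for the 2 label genes and for Trh, the precursor of thyrotropin-releasing hormone, whose receptor gene Trhr was also high in these neurons. They are printed 5′ to 3′ on the gene's strand, and capitals mark the letters of a motif that was searched for on both strands. In Tshz2 (chr2:169632259-169632558, plus strand) and Trh (chr6:92244601-92244900, minus strand) this is a GC box (GGGCGG or CCGCCC). In Htr2c (chrX:146962263-146962562, plus strand) it is an AP-1 site (TGANTCA).
Tshz2: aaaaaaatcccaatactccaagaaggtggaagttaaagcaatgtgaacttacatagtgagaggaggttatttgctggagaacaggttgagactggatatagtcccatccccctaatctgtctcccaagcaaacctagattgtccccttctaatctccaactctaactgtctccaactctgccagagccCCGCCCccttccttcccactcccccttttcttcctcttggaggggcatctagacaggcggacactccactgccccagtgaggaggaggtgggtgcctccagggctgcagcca
Htr2c: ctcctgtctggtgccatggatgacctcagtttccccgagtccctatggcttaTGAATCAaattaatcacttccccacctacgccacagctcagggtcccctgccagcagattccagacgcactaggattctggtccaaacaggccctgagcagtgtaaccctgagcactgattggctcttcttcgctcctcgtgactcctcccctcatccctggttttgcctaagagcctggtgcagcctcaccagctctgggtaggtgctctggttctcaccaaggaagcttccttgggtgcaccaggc
Trh: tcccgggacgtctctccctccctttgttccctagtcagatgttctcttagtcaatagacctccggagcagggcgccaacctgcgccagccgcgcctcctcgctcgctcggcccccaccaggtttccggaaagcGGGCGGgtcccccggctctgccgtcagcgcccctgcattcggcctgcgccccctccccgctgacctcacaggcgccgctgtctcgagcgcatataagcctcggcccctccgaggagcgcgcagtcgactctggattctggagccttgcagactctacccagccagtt
Of the 19 genes on the near-projecting list or most particular to the cluster, 14 had a RefSeq promoter, with 19 promoters in all. A GC box was found in 9 of these 19 promoters, against 35.7% of all 32851 promoters in the table. An AP-1 site was found in 2 of 19, against 7.81% of all promoters, a TATA box (TATAAA) in 1, against 13.6%, and an octamer (ATTTGCAT) in 1, against 1.74%. None held a cyclic AMP response element (TGACGTCA), which is present in 1.79% of all promoters. These counts describe letters in a short window only.

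Expression was compared between the summed L5-Htr2c neurons and the sum of the other 6 clusters of the same library. The authors made the clusters from the expression of these same cells, so the differences are a description of the cluster. The edgeR call used here asks for a log2 fold change of at least 0.5 in size, with an adjusted p under 0.05. It weighs a difference against counting error and the spread between the 3 libraries. Agreement of all 3 is not required: Gad1 was called higher although its rise rested on replicate 3. Of 14660 features tested, 24.8% were called, 1512 higher (10.3%) and 2126 lower (14.5%). The libraries of the 2 groups did not overlap in CPM for 56.1% of the features, so that separation by itself was common. L5-Htr2c was also compared alone with L6-Syt6, L5-S100b and L5-Bcl6, the 3 clusters with the highest correlation to it (given below), in 1 fit over 12850 genes. Against L5-S100b, 34.5% of these genes were called (2012 or 15.7% higher, 2417 or 18.8% lower). Against L5-Bcl6 the share was 29.7% (1883 or 14.7% higher, 1938 or 15.1% lower), and against L6-Syt6 28.5% (1635 or 12.7% higher, 2023 or 15.7% lower).

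All 12 genes of the near-projecting list were called higher in L5-Htr2c neurons, with a median log2 fold change of 5.35 against -0.04 over all genes tested. The list holds the markers that name the cluster and is not independent of it. Tshz2 stood at 1154, 1066 and 1110.4 CPM in replicates 1, 2 and 3 and at 8.27, 8.81 and 5.53 CPM in the other neurons, a log2 fold change of 7.11 (SE 0.06). Htr2c stood at 416, 361 and 407 CPM against 5.46, 4.66 and 5.42, a log2 fold change of 6.15 (SE 0.07). For both genes every library of L5-Htr2c neurons lay far above every library of the rest. The largest log2 fold change on the list was that of Slc17a8, the vesicular glutamate transporter VGLUT3, at 7.44 (SE 0.22), with 47.2, 60.0 and 43.1 CPM against 0.254, 0.328 and 0.212. Nxph1, a secreted ligand of neurexins, reached 93.2, 105 and 67.8 CPM against 0.930, 1.37 and 0.972. Sla2, a Src-like adaptor, was at 47.2, 48.1 and 50.2 CPM against 0.457, 0.218 and 0.459, and was detected in 46.4% of L5-Htr2c neurons against 0.856% of the others. Rapgef3, a guanine nucleotide exchange factor activated by cyclic AMP, was at 47.2, 49.5 and 60.0 CPM against 0.930, 0.710 and 0.671. Slc17a8, Sla2 and Rapgef3 each stayed under 1 CPM in the summed rest of the excitatory neurons in all 3 libraries.

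**Figure D1:**
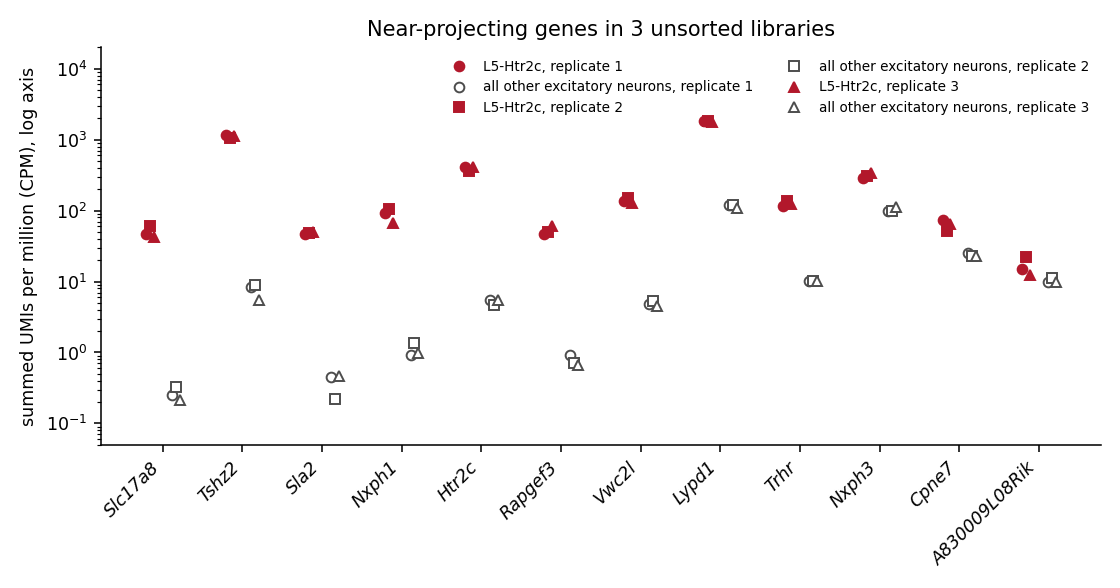
CPM (log axis) of the 12 near-projecting genes in L5-Htr2c neurons (filled points) and in all other excitatory neurons (open points), 1 point for each of the 3 unsorted libraries. The filled points lie above the open ones for every gene, by a wide gap for Slc17a8 and Tshz2 and by the narrowest for A830009L08Rik, where 12.4 to 22.3 CPM face 9.81 to 11.2.

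Other list members were shared with further clusters. Lypd1, a membrane-anchored Ly6 protein, was at 1807, 1837 and 1784 CPM, and was also high in L5-Bcl6 neurons (764 ± 75.7 CPM) and L2/3-Calb1 neurons (559 ± 24.3 CPM). Nxph3, a second neurexophilin, was at 287, 309 and 334 CPM and was carried elsewhere mainly by L6-Syt6 neurons (171 ± 13.5 CPM). Vwc2l, a secreted protein with a von Willebrand factor C domain, was at 135, 153 and 129 CPM, and its next highest cluster, L2/3-Calb1, had 14.6 ± 3.82 CPM. Cpne7, a calcium-dependent phospholipid-binding copine, was higher in L5-Htr2c than in the summed rest (62.5 ± 11.0 against 23.8 ± 1.63 CPM). It was not higher than in the layer 5 neighbours, since L5-S100b held 65.6 ± 2.08 and L5-Bcl6 90.8 ± 7.29 CPM. Against L5-Bcl6 it was the 1 list member called lower, with a log2 fold change of -0.60. The lincRNA A830009L08Rik was higher still in L2/3-Calb1 (26.1 ± 0.452 CPM) and L2/3-Rorb (20.6 ± 0.979 CPM) than in L5-Htr2c neurons (16.6 ± 5.13 CPM). Its log2 fold change against the rest was 0.58, close to the limit of a call.

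The genes most particular to the cluster were ranked, among 3706 genes with at least 50 CPM in L5-Htr2c neurons of every library, by the lowest ratio over the 3 libraries to the highest other cluster. Tshz2 led, with 83.5 times the level of the next cluster in the library where this ratio was lowest. It was followed by Grik1 (48.2), Mirt1 (30.3), Nxph1 (23.4), Trh (22.4), Stard5 (20.3), Kcnip1 (19.2), Myl4 (19.1), Cbln2 (11.1) and Htr2c (8.95). Htr2c itself came last of these 10 because L2/3-Rorb neurons held 39.9 ± 1.77 CPM of it. Several of the others code for proteins of synapses and channels. Grik1, a kainate-type glutamate receptor subunit, was at 114, 106 and 118 CPM against 0.659, 0.528 and 0.760 in the other neurons (log2 fold change 7.33, SE 0.15). Kcnip1, a calcium-binding auxiliary subunit of Kv4 potassium channels, was at 105, 118 and 121 CPM against 0.846, 0.801 and 0.707. Cbln2, a secreted cerebellin that organizes synapses through neurexins, was at 464, 497 and 506 CPM against 33.1, 34.4 and 30.4. Myl4, a myosin light chain best known from heart muscle, was at 1323, 1099 and 1139 CPM against 40.8, 40.7 and 43.3. Stard5, a lipid transfer protein, was at 59.4, 66.3 and 58.1 CPM, and the long non-coding RNA Mirt1 at 90.2, 77.4 and 75.7 CPM. In each of these genes the lowest L5-Htr2c library lay above the highest library of every other cluster.

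The thyrotropin-releasing hormone system was present on both sides. Trh was at 61.1, 64.9 and 106 CPM against 1.76, 1.49 and 1.47, and a UMI of it was seen in 43.3% of L5-Htr2c neurons against 2.87% of the others. Trh varied more between replicates than the other leading genes, with replicate 3 the highest. Trhr, the receptor for the hormone, was at 117, 137 and 123 CPM against 10.1, 10.3 and 10.1, and was next highest in L5-S100b (23.5 ± 1.90 CPM). Trh lies at chr6:92242061-92244650 on the minus strand of mm10, Grik1 at chr16:87895900-88290265 on the minus strand and Slc17a8 at chr10:89574020-89621253 on the minus strand.

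Excitatory neurons load glutamate into vesicles with one or more of the VGLUT transporters, and the cluster had its own combination of them. Slc17a7 (VGLUT1), the main cortical transporter, was at 703, 716 and 694 CPM, below every library of every other cluster, and at 1053, 1027 and 1046 CPM in the rest (log2 fold change -0.67, SE 0.03). Against L5-Bcl6 alone, Slc17a7 was not called lower. Slc17a6 (VGLUT2), the transporter typical of thalamus and brainstem, was at 175, 185 and 183 CPM against 17.2, 17.6 and 18.1 (log2 fold change 3.26, SE 0.07), and was detected in 86.9% of L5-Htr2c neurons. The next highest cluster for Slc17a6 was L6-Syt6, with 27.1 ± 0.723 CPM. Slc17a8 (VGLUT3), given above, was found in 32.2% of L5-Htr2c neurons and 0.510% of the others. Slc30a3, which loads zinc into synaptic vesicles, was at 2.33, 0.698 and 1.96 CPM against 51.0, 47.2 and 51.2. In this near absence L5-Htr2c resembled L6-Syt6 (1.78 ± 0.591 CPM) and differed from L5-S100b (119 ± 4.94 CPM).

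**Figure D2:**
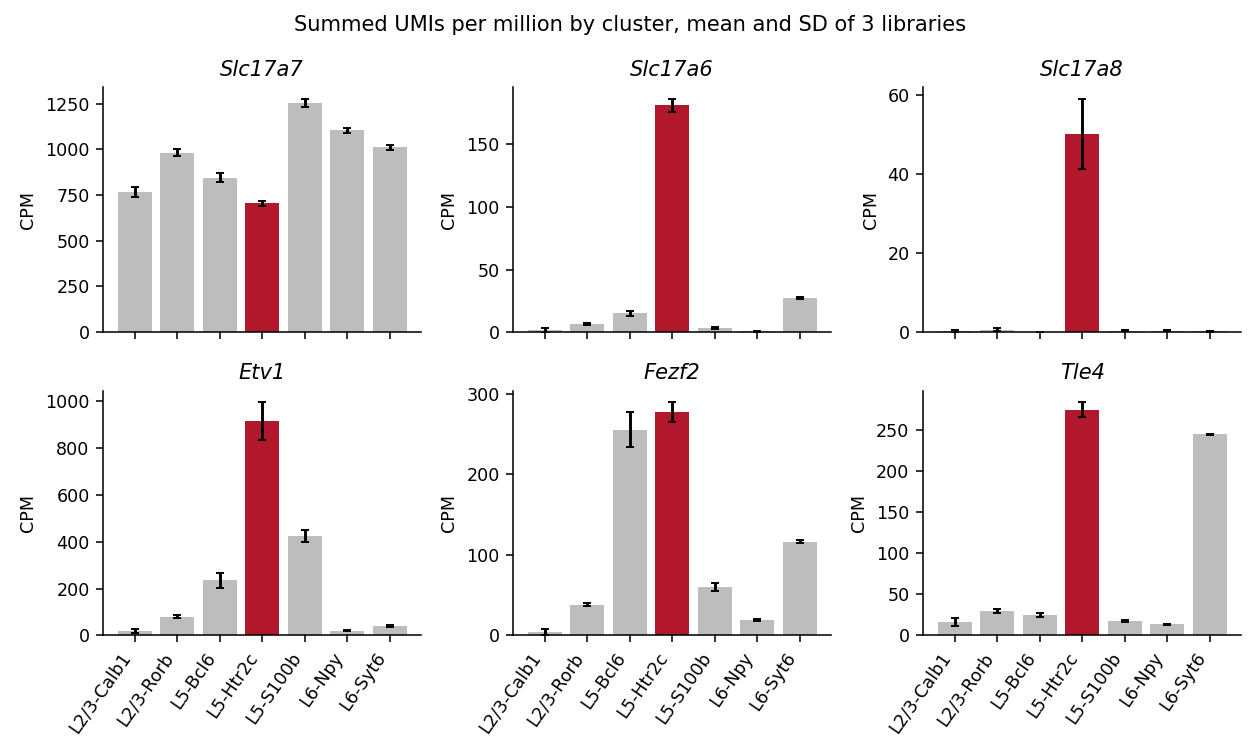
CPM of Slc17a7, Slc17a6, Slc17a8, Etv1, Fezf2 and Tle4 in the 7 clusters (bars are means and error bars SD over 3 unsorted libraries). L5-Htr2c is lowest for Slc17a7 (704 ± 11.6) and highest for Slc17a6 (181 ± 5.17), Slc17a8 (50.1 ± 8.84) and Etv1 (915 ± 79.9), shares Fezf2 with L5-Bcl6 (277 ± 12.4 and 256 ± 21.9) and Tle4 with L6-Syt6 (275 ± 8.75 and 245 ± 0.932).

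Of 46 tested transcription factors of cortical projection neurons, 14 were called higher and 22 lower, with a median log2 fold change of -0.37. Tshz2 apart, Etv1, an ETS factor of layer 5, showed the largest rise, at 992, 920.2 and 832 CPM against 122, 111 and 101, and L5-S100b was next with 424 ± 25.0 CPM. Satb1, a chromatin organizer, was at 447, 458 and 432 CPM against 148, 145 and 141. Fezf2, which specifies subcerebral neurons of layer 5, was at 265, 277 and 289.7 CPM, a level that was not called different from that of L5-Bcl6 (log2 fold change 0.04). Bcl11b (CTIP2), which acts downstream of Fezf2 in subcerebral neurons, was at 399, 339 and 341 CPM, against 447 ± 24.9 in L5-Bcl6. Tle4, a corepressor typical of layer 6 corticothalamic neurons, was at 273, 285 and 267 CPM, against 245 ± 0.932 in L6-Syt6 (log2 fold change 0.03, not called) and 17.2 ± 1.29 in L5-S100b. The cluster thus carried factors typical of 2 other projection classes, at levels near those of L5-Bcl6 and L6-Syt6. Foxp2, another layer 6 factor, did not follow Tle4: it stood at 62.9, 65.6 and 55.5 CPM, against 236 ± 5.84 in L6-Syt6. Tbr1, which specifies corticothalamic identity, was at 135, 127 and 119 CPM against 263, 266 and 257 in the rest.

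Among the factors called lower, Nr2f1, which patterns cortical areas, was at 8.15, 9.07 and 7.83 CPM against 128, 123 and 133, below every library of every other cluster. Lmo4 (431, 403 and 447 CPM against 962, 1008 and 1037), Zbtb18 (100.1, 120.0 and 94.6 against 280.2, 262 and 258) and Id2 (89.7, 97.0 and 91.3 against 274, 269.7 and 269) were likewise lowest in L5-Htr2c of the 7 clusters. Nfia, a nuclear factor I gene, was at 15.7, 33.5 and 25.4 CPM against 151, 150.0 and 143, in the same range as in L5-S100b (22.9 ± 2.53 CPM). The name-giving gene of each other cluster was low here against the summed rest. Bcl6 had 1 UMI in all L5-Htr2c neurons, and Syt6, at 6.40, 6.98 and 7.83 CPM, was low only where L6-Syt6 neurons were part of the comparison. Against the rest without L6-Syt6 neurons, the log2 fold change of Syt6 was 0.94.

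By list, genes of the other projection classes were mixed. Of 18 intratelencephalic and upper-layer genes, 4 were called higher and 11 lower, with a median of -2.63, or -2.01 with the 3 genes at 0 UMIs set at their bound. These 3 were Osr1, Stard8 and Rspo1, at least 5.29-fold, 4.32-fold and 3.77-fold lower than in the rest, from a floor of 3 counts over the 3 libraries. The split of the intratelencephalic list differed by partner. It was 3 higher and 12 lower against L5-S100b, 7 and 5 against L5-Bcl6 and 6 and 4 against L6-Syt6. Of 12 tested pyramidal tract genes, 3 were higher and 7 lower (median -1.48), and against L5-Bcl6 neurons 0 were higher and 9 lower. Of 18 tested corticothalamic and layer 6b genes, 2 were higher and 12 lower than in the rest (median -1.26). This list depended on the partner as well: 12 were higher and 3 lower against L5-S100b, 11 and 4 against L5-Bcl6, but 1 and 15 against L6-Syt6. The members called higher than the rest were Tle4 and Ctgf, a matricellular protein used as a layer 6b marker, which stood at 89.1, 85.8 and 91.3 CPM against 38.5 ± 0.701 in L6-Syt6. Ntsr1, the neurotensin receptor that marks corticothalamic neurons, had 0 UMIs in L5-Htr2c neurons of all 3 libraries, at least 22.7-fold lower than 14.2, 15.0 and 14.5 CPM in the rest.

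Serotonin receptors were examined because the cluster is named after one. Of 14 listed, 11 were tested, 4 were called higher and 5 lower. Htr4, a Gs-coupled receptor, was at 12.8, 11.2 and 7.83 CPM against 0.626, 0.455 and 0.495, with L5-Bcl6 next at 6.07 ± 1.94. Htr1d, a Gi-coupled receptor, was at 4.08, 3.49 and 1.96 CPM against 0.0507, 0.0182 and 0.0530, and Htr5b at 3.49, 3.49 and 3.26 CPM against 0.169, 0.218 and 0.336. All 3 rest on few UMIs: one of Htr4 was seen in 15.0% of L5-Htr2c neurons, of Htr1d in 4.65% and of Htr5b in 4.72%. In the opposite direction, Htr2a, the other Gq-coupled receptor of cortical pyramidal neurons, was at 1.75, 0.698 and 0 CPM against 16.0, 14.7 and 15.7. Htr1b was at 1.16, 0 and 0 CPM against 11.4, 11.1 and 11.3. Htr2a was as low in L6-Syt6 (1.28 ± 0.263 CPM) and L5-Bcl6 (1.48 ± 0.197 CPM), whereas no cluster was as low for Htr1b. Htr1a and Htr5a were called lower with log2 fold changes of -1.15 and -0.83, Htr7 with -1.80, and Htr6 and Htr1f were not called. The Htr7 value held only while L6-Syt6 weighed in the rest: it was 0.05 without that cluster.

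Downstream of Gq-coupled receptors, 3 of 22 tested genes were called higher and 10 lower (median -0.28). Prkca, protein kinase C alpha, was at 242, 217 and 229 CPM against 56.7, 54.2 and 54.7, and was highest in L5-Htr2c of the 7 clusters in every library. Trpc6, a cation channel opened by diacylglycerol, had 0 UMIs, at least 7.36-fold lower than in the rest. Gnaq, the G protein subunit itself, had a log2 fold change of -0.11 and was not called. Genes of the pathway were thus called in both directions within the list.

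**Figure D3:**
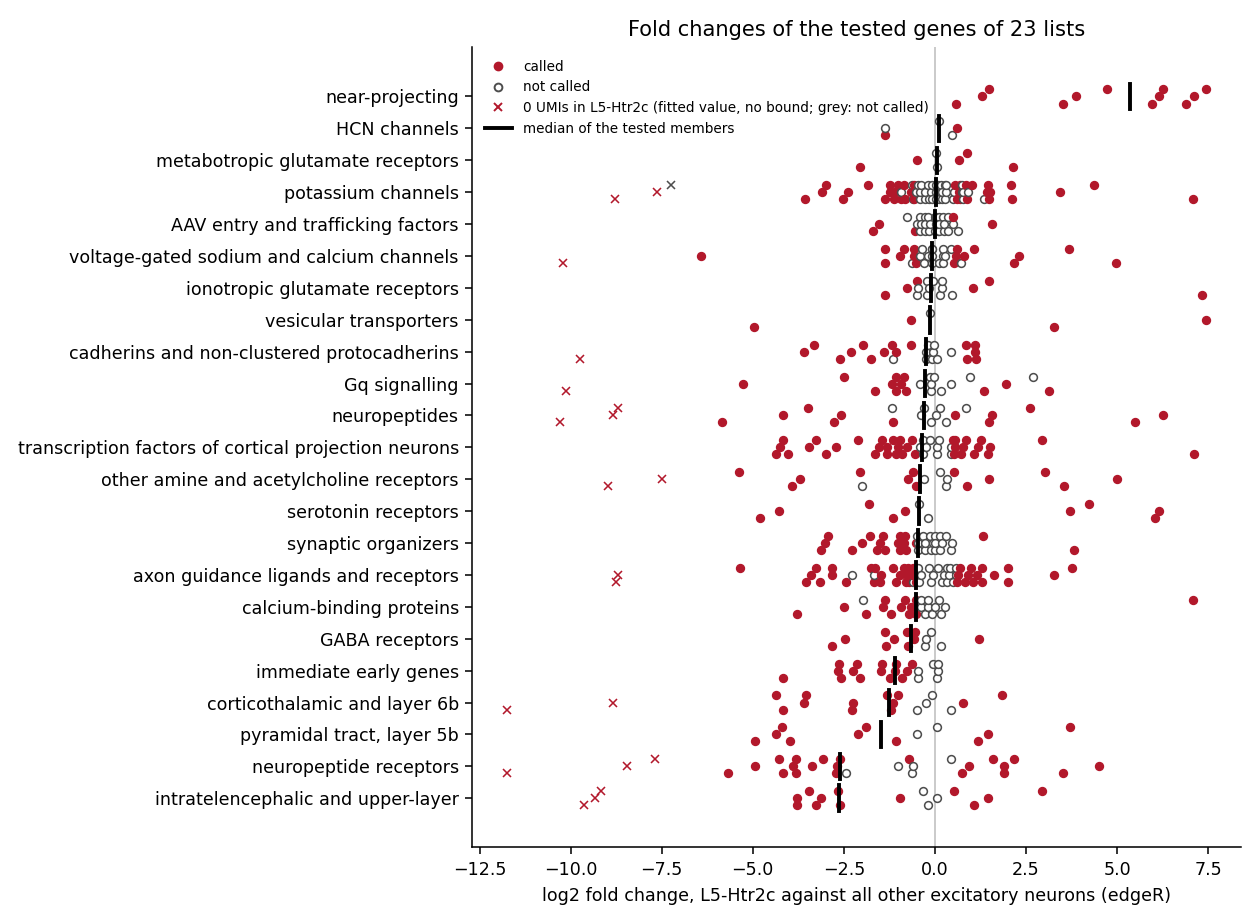
Log2 fold change of L5-Htr2c against all other excitatory neurons for the tested genes of each list, with 1 point per gene, called genes filled, genes at 0 UMIs in L5-Htr2c as crosses and the list median as a bar. Only the near-projecting list lies wholly above 0 (median 5.35), and the immediate early genes have no called member above 0 (median -1.08).

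Receptors and peptides of other transmitters were called in both directions. Of 20 tested receptors for other amines and acetylcholine, 6 were called higher and 9 lower against the rest. The split depended on the partner, with 8 higher and 7 lower of 18 tested against L5-S100b, 10 and 6 against L5-Bcl6 and 7 and 6 against L6-Syt6. Hrh2, the Gs-coupled histamine receptor, was at 26.8, 21.6 and 27.4 CPM against 2.01, 2.13 and 1.91. Chrm2, the Gi-coupled muscarinic receptor, was at 66.4, 57.9 and 56.8 CPM against 7.10, 6.88 and 6.96. Both were higher in L5-Htr2c than in any other cluster in all 3 libraries. Drd2, the D2 dopamine receptor, had 0 UMIs, at least 3.35-fold lower than in the rest. Of 29 tested neuropeptide receptors, 8 were higher and 16 lower (median -2.60, or -1.22 with the 3 genes at 0 UMIs set at their bound). Avpr1a, a vasopressin receptor, was at 6.99, 9.77 and 9.79 CPM against 0.423, 0.309 and 0.336.

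Of 23 tested neuropeptide genes, 6 were called higher and 9 lower against the rest, but of 22 tested in pairs, 9 were higher and 5 lower against L5-S100b, 8 and 6 against L5-Bcl6 and 5 and 5 against L6-Syt6. After Nxph1 and Trh the largest rise was that of Grp, gastrin-releasing peptide, at 369, 359 and 371 CPM against 56.1, 58.1 and 53.3, with L2/3-Calb1 next at 253 ± 21.8 CPM. Cck, cholecystokinin, had the largest fall among genes with at least 50 CPM in the rest, at 8.15, 50.9 and 13.0 CPM against 1238, 1166 and 1285 (log2 fold change -5.85, SE 0.13). Replicate 2 was the highest because 1 neuron held 58 of its 73 Cck UMIs. That neuron also had Tshz2 and Htr2c transcripts (14 and 11 UMIs), was marked as a possible doublet, and held 19 of the 21 Nr4a2 UMIs and 9 of the 11 Igfbp6 UMIs of that library. Its part in other values was not tested beyond the alternatives without possible doublets. Nts, neurotensin, had 0 UMIs in L5-Htr2c neurons, at least 8.37-fold lower than in the rest.

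Glutamate and GABA receptors were read by class. Of 16 tested ionotropic glutamate receptor subunits, 3 were higher and 3 lower (median -0.11), and Grik1 was the one large rise. Gria3, an AMPA receptor subunit, was at 129, 125 and 125 CPM against 311, 306 and 294, the lowest of all clusters. Of 7 metabotropic glutamate receptors, 3 were higher and 2 lower (median 0.05). Grm4, a presynaptic metabotropic glutamate receptor, was at 39.0, 27.2 and 30.7 CPM against 6.34, 7.15 and 7.12. Of 14 GABA receptor subunits, 1 was higher and 9 lower (median -0.65). Gabrg3, the one that was higher, stood at 133, 138 and 128 CPM against 54.0, 53.8 and 52.1. Gabbr2, the subunit that the GABA-B receptor needs to couple to G proteins, was at 47.7, 39.8 and 47.6 CPM against 297, 297 and 298, and the nearest cluster, L5-Bcl6, held 201 ± 0.817 CPM. A UMI of Gabbr2 was seen in 33.4% of L5-Htr2c neurons and 99.0% of the others. These shares are not at equal depth, and L5-Htr2c neurons were read less deeply.

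Against the rest, channel genes were called in similar numbers in both directions. Of 76 tested potassium channel genes 17 were higher and 21 lower (median 0.03), and of 34 sodium and calcium channel genes 9 each (median -0.09). For potassium channels the split was 14 and 26 against L5-S100b, 19 and 19 against L5-Bcl6 and 21 and 21 against L6-Syt6. For sodium and calcium channels it was 5 and 11, 9 and 11, and 10 and 5 in the same order. Kcna5 (Kv1.5) was at 27.9, 19.5 and 28.1 CPM against 0.947, 1.09 and 1.38. Cacng5, an auxiliary protein of AMPA receptors and calcium channels, was at 29.1, 25.1 and 28.1 CPM against 2.06, 1.86 and 2.01, and Cacna2d2, a calcium channel subunit, at 34.4, 26.5 and 33.9 CPM against 6.39, 5.90 and 5.67. Scn7a, a sodium-sensing channel, had 0 UMIs, at least 7.83-fold lower than in the rest.

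Of 63 tested axon guidance genes, 15 were called higher and 29 lower against the rest (median -0.51). Of 61 tested in pairs, 14 were higher and 29 lower against L5-S100b, 16 and 25 against L5-Bcl6 and 18 and 18 against L6-Syt6. Sema6a, a transmembrane semaphorin, was at 41.9, 35.6 and 37.2 CPM against 3.47, 3.79 and 3.83. Unc5b, a netrin receptor, was at 7.57, 5.58 and 2.61 CPM against 0.338, 0.473 and 0.283, a range that overlaps that of L5-Bcl6 neurons (4.31 ± 2.19 CPM). Epha4, an ephrin receptor, was at 6.99, 6.98 and 2.61 CPM against 218, 211 and 209.9, far under the lowest other cluster (L6-Syt6, 96.5 ± 2.18 CPM). Of 25 tested cadherins and protocadherins, 5 were higher and 11 lower, with no rise above a log2 fold change of 1.12. Of 37 synaptic organizers, 2 were higher, Cbln2 and Lrrtm1, and 17 lower (median -0.47).

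The 10 genes with the largest falls at 50 CPM or more in the rest were Cck, Alcam, Epha4, Bmp3, Cryab, Igfbp6, Tesc, Stk32c, 3110035E14Rik and St6galnac5. Alcam, a cell adhesion molecule, was at 2.33, 2.79 and 2.61 CPM against 123, 109.7 and 111. Stk32c, a serine/threonine kinase, was at 11.6, 14.0 and 6.52 CPM against 253, 253 and 246, and 3110035E14Rik at 27.9, 40.5 and 26.7 CPM against 669, 695 and 673. St6galnac5, a sialyltransferase of gangliosides, was at 4.66, 6.28 and 4.57 CPM against 102, 110.1 and 99.3. For these genes L5-Htr2c lay below all other clusters in every library. Cryab, a small heat shock protein, was instead as low in L5-Bcl6 (3.31 ± 0.661 CPM) as in L5-Htr2c neurons (2.59 ± 0.799 CPM).

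Immediate early genes, which report recent activity or the stress of dissociation, were lower in L5-Htr2c neurons: 0 of 21 were called higher and 15 lower, with a median of -1.08. Summed, they took 3830 to 4461 CPM against 6022 to 6213 in the rest. Egr4 was at 27.4, 64.9 and 56.1 CPM against 275, 275 and 305, and Egr2 at 9.90, 14.7 and 3.26 CPM against 52.3, 52.7 and 54.2. The difference depended on the partner cluster, with 0 higher and 17 lower against L6-Syt6, 2 and 12 against L5-S100b, and 7 and 7 against L5-Bcl6 (median 0.08). The part of activity, dissociation and the lower UMI count of these neurons in this result was not tested.

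Markers of other cell classes were summed as a check. Astrocyte markers took 91.4 to 121 CPM in L5-Htr2c neurons against 21.6 to 23.1 in the rest, nearly all of it Aldoc, an enzyme of glycolysis (96.6, 91.4 and 120.0 CPM), while Aldh1l1 had 0 UMIs. Mural cell markers took 26.1 to 34.9 against 14.9 to 16.0 CPM, carried by Rgs5 with Pdgfrb and Acta2 at 0. Inhibitory markers took 7.67 to 38.5 CPM against 7.92 to 10.2, where the highest value, of replicate 3, rested on 1 possible doublet with 20 of the 23 Gad1 UMIs of that library. Without replicate 3 the log2 fold change of Gad1 was -1.09. Microglial (13.3 to 20.2 against 14.6 to 17.8 CPM) and oligodendrocyte (63.5 to 80.2 against 70.7 to 72.4 CPM) sums overlapped those of the rest.

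Likeness between clusters was read from mean log2 CPM over the same 12850 genes. Pearson's r was 0.936 with L6-Syt6, 0.907 with L5-S100b and 0.901 with L5-Bcl6, and 0.977 to 0.979 between the 3 libraries of L5-Htr2c itself. These are descriptions across genes, which share libraries and are not independent. The sums also differ in size, with 33047830 UMIs for L6-Syt6 and 2220562 for L5-Bcl6 in replicate 3. The part of this in r was not tested. In all 3 comparisons with single clusters 751 genes were called higher, which is 37.3%, 39.9% and 45.9% of the higher genes of each, and 780 were called lower, which is 32.3%, 40.2% and 38.6%. The 3 comparisons share the L5-Htr2c sums, so these shares are descriptions.

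Tshz2, Grik1, Mirt1, Kcnip1 and Trh recurred among the largest rises of these pairs, and others told the partners apart. Against L5-S100b, Tpbg, a membrane glycoprotein, was at 56.9 ± 5.43 against 0.252 ± 0.0450 CPM, and it was shared with L5-Bcl6 (37.1 ± 5.09 CPM). Fam19a1, a secreted chemokine-like peptide, was at 1.25 ± 0.527 CPM, against 134 ± 5.51 in L5-S100b and 273 ± 17.8 in L5-Bcl6. Against L5-Bcl6, Kcnk2 (TREK-1), a background potassium channel, was at 218, 193 and 242 CPM against 0.635 ± 0.341. Kcnk2 was also above the other clusters, of which L2/3-Rorb was next with 97.0 ± 2.05 CPM. Against L6-Syt6, Arhgap25, a GTPase-activating protein, was at 1.16, 2.09 and 0 CPM against 50.7 ± 0.310, and Sla, a Src-like adaptor, at 1.90 ± 1.29 against 70.7 ± 3.47 CPM.

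Few L5-Htr2c neurons held a viral barcode transcript. At 1 or more barcode UMIs, 14 of 122, 14 of 97 and 18 of 98 neurons were positive in replicates 1, 2 and 3, which is 11.5%, 14.4% and 18.4% (95% Wilson intervals 6.96 to 18.3%, 8.80 to 22.8% and 11.9 to 27.2%). The lowest other cluster, L2/3-Calb1, had 47.9% ± 4.86 and the highest, L5-S100b, 84.5% ± 2.40. Since L5-Htr2c neurons were read less deeply, the shares were also taken with each cell thinned to 5000 UMIs. They were 7.44%, 9.47% and 9.38% in L5-Htr2c (mean 8.76% ± 1.15) and 32.6% to 75.4% in the other clusters, so that the libraries did not overlap at equal depth. As a background, 3.32% ± 1.41 of microglia-gated cells and 2.94% ± 1.35 of inhibitory-gated cells held a barcode UMI when thinned in the same way. The share in L5-Htr2c neurons lay above both, in every library. The intervals cover counting error only.

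The barcode counts of positive L5-Htr2c neurons were low as well. Of the positive neurons, 7 of 14, 9 of 14 and 9 of 18 had a single barcode UMI, and 2, 2 and 4 neurons had 5 or more. The share with 5 or more was 2.59% ± 1.31, against 0.0717% ± 0.0623 of microglia-gated and 0.799% ± 0.875 of inhibitory-gated cells and 25.9% to 69.1% of the other clusters. The feature as a whole stood at 18.6, 25.1 and 82.2 CPM in L5-Htr2c against 511, 435 and 522 CPM in the rest, a log2 fold change of -3.67 with an SE of 0.13 (3.36e-18 as adjusted p in edgeR, over all 14660 features). In replicate 3, 1 neuron held 83 of the 126 barcode UMIs. Without that neuron, an alternative chosen after seeing the data, replicate 3 stood at 28.4 CPM, still the highest, and the log2 fold change was -4.47 with an SE of 0.08 (2.79e-21 as adjusted p in edgeR). In the sorted library 2 of the 4 L5-Htr2c neurons were positive, too few for a comparison.

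**Figure D4:**
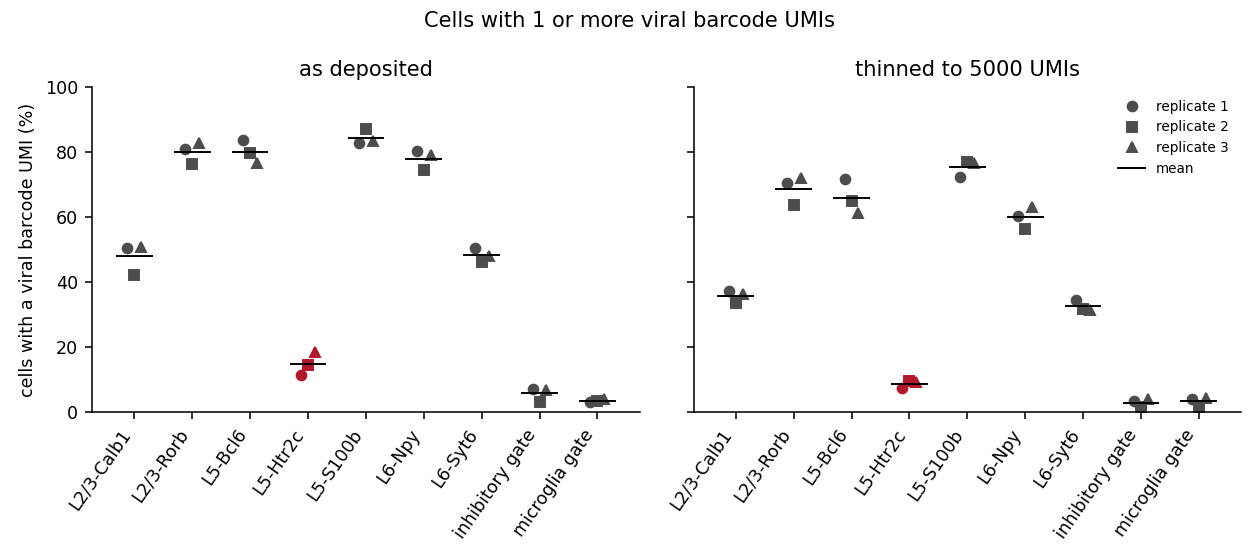
Percent of cells with at least 1 viral barcode UMI in each of the 7 clusters and in cells gated as inhibitory neurons or microglia, as deposited and with each cell thinned to 5000 UMIs, 1 point for each unsorted library. L5-Htr2c (14.8% as deposited, 8.76% thinned) lies between the gated cells and the other 6 clusters, of which the lowest are L2/3-Calb1 as deposited (47.9%) and L6-Syt6 thinned (32.6%).

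A retrograde virus must also be taken up, so the cluster was read for 32 genes of AAV entry and trafficking. Against the rest 2 were called higher and 3 lower, with a median of 0.01. Of 31 tested in pairs, 4 were higher and 8 lower against L5-S100b, 4 and 6 against L5-Bcl6 and 3 and 4 against L6-Syt6. These are 38.7%, 32.3% and 22.6% called, against 34.5%, 29.7% and 28.5% of all genes tested. Fgfr1, a co-receptor, was at 56.5, 46.0 and 50.9 CPM against 15.8, 17.0 and 15.7, and B4galt7, an enzyme of heparan sulfate synthesis, at 28.5, 26.5 and 22.2 CPM against 17.1, 17.2 and 16.7. Ext1, which polymerizes heparan sulfate, was at 20.4, 23.7 and 33.3 CPM against 77.1, 79.0 and 76.0. Itgav, an integrin subunit, was at 15.1, 7.67 and 10.4 CPM against 33.3, 29.9 and 28.5, and Vps52, of the Golgi tethering complex, at 26.2, 24.4 and 28.7 CPM against 35.7, 35.7 and 37.8. AU040320, the AAV receptor, was at 21.5, 14.7 and 19.6 CPM against 22.3, 23.8 and 23.4 and was not called (log2 fold change -0.40). With each cell thinned to 5000 UMIs the barcode share was 8.76%, against 32.6% to 75.4% in the other clusters, as given above. Whether uptake or axon targets set the barcode share of these neurons was not tested.

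Barcode-positive and barcode-zero L5-Htr2c neurons of the same library were compared across 8287 genes, of which edgeR called 4 (0.0483%), 3 of them higher (0.0362%) and 1 lower (0.0121%). The median UMI count of the groups was near equal (13391.5, 14714 and 15345 in positive neurons, 13886.5, 14324 and 15672.5 in barcode-zero ones). Hspa1a, an inducible heat shock protein, was lower in positive neurons, at 64.6, 182 and 95.7 CPM against 229.8, 253 and 210.3, with no overlap of the groups (log2 fold change -0.98, edgeR adjusted p 0.000703). Nefl, the neurofilament light chain, was at 32.3, 169 and 31.9 CPM against 19.6, 15.9 and 22.4 (log2 fold change 1.94, edgeR adjusted p 0.000604). Nnat, a membrane proteolipid, was at 21.5, 135 and 17.7 CPM against 12.4, 13.4 and 16.8 (edgeR adjusted p 0.00833), and Gabbr2 at 96.8, 97.2 and 60.3 CPM against 41.8, 28.4 and 44.8 (edgeR adjusted p 0.0366). Nefl and Nnat were raised mainly in replicate 2, in which the possible doublet described above, itself barcode-positive, held 26 of 48 Nnat UMIs and another positive neuron 19 of 59 Nefl UMIs. With possible doublets left out, an alternative chosen after seeing the data, Nnat (log2 fold change 0.70, edgeR adjusted p 0.960) and Gabbr2 (1.05, 0.0646) were no longer called, while Nefl (1.60, 0.00178) and Hspa1a (-0.92, 9.73e-05) were. Without replicate 2 only 1 gene was called, and DESeq2 made 0 calls, although 42 genes had a raw p under 0.05 there and 459 in edgeR.

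Within the cluster, genes were ranked by the ratio of variance to mean over 312 neurons thinned to 5000 UMIs, using the lowest of the 3 libraries. The ratio is near 1 for sampling alone, and the median over 2992 genes was 0.927. Malat1 (11.2) and Meg3 (4.93), both nuclear long non-coding RNAs, came first, followed by the mitochondrial mt-Atp6 (3.59) and mt-Co3 (3.48), whose transcripts overlap, and by Fos (3.41), Myl4 (3.34), Junb (3.26), Sox4 (3.18), mt-Cytb (2.85) and Hspa1a (2.66). Only 21 genes reached 2. Myl4 was thus both particular to the cluster and uneven within it. Tshz2 (1.49) and Htr2c (1.33) lay between these genes and the median.

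A few neurons of the cluster had a high share of mitochondrial UMIs, and in these the label genes stood apart. The 8 neurons with 3 or fewer Tshz2 UMIs had 14.5% to 19.3% mitochondrial UMIs, against a median of 5.98% over all, and 3866 to 8158 UMIs in total. Neurons with 10% or more mitochondrial UMIs numbered 4, 3 and 4 in replicates 1, 2 and 3. Tshz2 was at 504, 503 and 845 CPM in these and at 1168, 1073 and 1116 CPM in the remainder. Htr2c went the other way, at 1203, 1006 and 845 CPM against 399, 353 and 397. The direction was the same in every library for both genes. The neurons with a high mitochondrial share held 43, 18 and 28 Htr2c UMIs and 18, 9 and 28 Tshz2 UMIs, so that these values rest on few counts. No test was run on this split, which was chosen after the values were seen, and the part of RNA quality in it was not tested.

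**Figure D5:**
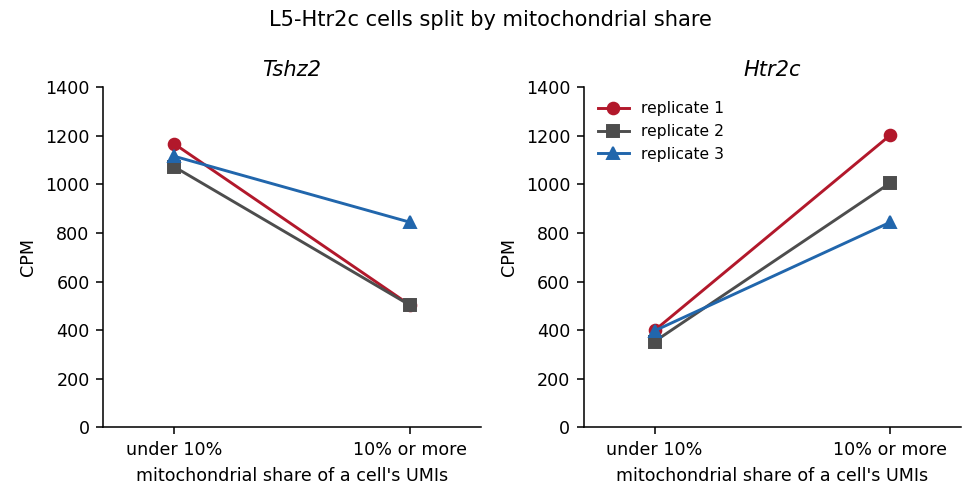
CPM of Tshz2 and Htr2c in L5-Htr2c neurons with under 10% and with 10% or more mitochondrial UMIs, with a line for each unsorted library. Tshz2 falls and Htr2c rises in all 3 libraries, and the neurons at 10% or more number 4, 3 and 4.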

How the data were processed

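The 4 matrices hold raw UMI counts per gene and cell barcode, which the authors made with Cell Ranger against mm10 with the viral barcodes added, without normalization. The deposited metadata give the authors' cluster (filtered in Seurat 3.1.4, per the labels, and clustered by the Leiden algorithm in Scanpy, per the study's methods) and each cell's count of UMIs and genes and percent of mitochondrial UMIs. No columns of the authors' own comparisons were used. Counts of L5-Htr2c and of each other cluster were summed per unsorted library and compared in R 4.3.3 by the quasi-likelihood test of edgeR 4.0.16, after filterByExpr and TMM scaling, with the library as a block. Same-numbered groups come from the same mouse, hence the block. P-values measure only counting error and the spread between 3 libraries, and a call does not require every library to agree. The viral feature, 0.0319% to 0.0378% of UMIs, stayed out of library sizes. DESeq2 1.42.0 was an alternative. The scripts were tested on simulated counts. No doublet caller was run, and possible doublets were left out in an alternative. Microglia-gated and inhibitory-gated cells were unlabelled cells with at least 10 microglial marker UMIs or 5 Gad1 and Gad2 UMIs, at most 1 UMI of Slc17a7 and none of the other gate's genes. Confidence intervals are Wilson's at 95%.

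The members and gene lists were chosen with earlier results of these data known. Named were the near-projecting list, the 10 largest changes each way at 50 CPM or more, the 10 genes most particular to the cluster, up to 3 called genes each way of every other list (all members for transcription factors, serotonin receptors and AAV factors), 5 each way for each pair of clusters, the called genes of the barcode comparison and the 10 most variable genes. Sox4 and other genes outside a list were named by these ranks, and Gnaq after its value was seen. Genes that overlap on the same strand may share reads. A few genes that this rule names are not reported here.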

Additional observations from a re-analysis of the deposited data

How the results depend on the processing

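With a log2 fold change limit of 1 the called genes fell to 2085 against the rest, 2337 against L5-S100b, 2112 against L5-Bcl6 and 1798 against L6-Syt6, by construction. Thinning each cell to 5000 UMIs left 2394 against L5-Bcl6, and fewer UMIs were then tested. Leaving out 1 replicate in turn gave 2965 to 3412, 3997 to 4264, 3394 to 3603 and 3344 to 3497 genes, a cell share of 3.94% to 4.16% and a barcode-positive share of 13.0% to 16.4%. The barcode-positive share was 8.76% in thinned cells and 2.59% at 5 or more barcode UMIs. Without the replicate block 3702, 4387, 3771 and 3615 genes were called, and 3 in the barcode comparison, where Gabbr2 was lost (edgeR adjusted p 0.0908). The barcode comparison was the least stable, with 0 genes by DESeq2, 10 without a filter on low counts and 1 to 16 without 1 replicate (16 without replicate 1, 1 without replicate 2, 10 without replicate 3).

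A few named genes turned direction, and the cause was not tested. Against the rest, Syt6 moved to 0.94 without L6-Syt6 and to 0.19 with equal weight of the clusters, and Htr7 to 0.049 and 0.44. Gad1 moved to -0.16 without possible doublets. Leaving out 1 replicate in turn, Gad1 ranged from -1.09 to 2.02 against the rest, -0.45 to 2.59 against L5-S100b, -0.55 to 3.50 against L5-Bcl6 and -0.87 to 2.39 against L6-Syt6, and Gad2 from -0.98 to 2.05, -0.0107 to 2.56, -0.0836 to 4.78 and -0.89 to 2.10 in the same order, each lowest without replicate 3. Rgs5 moved to -0.98 against L5-Bcl6 in thinned cells. Against the rest, 105 of 148 named genes kept direction and call in every alternative. Scaling by DESeq2 moved the median log2 fold change by under 0.1 in each comparison over the genes that both tools tested. Over each tool's own genes the median against the rest was 0.16 by DESeq2 and -0.04 by edgeR, and against L6-Syt6 0.12 and -0.04.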
